A study of Mus musculus with 8 samples.

Results

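The 5 genes described here, Hnf4a, Foxa1, Foxa2, Foxa3 and Onecut1, encode transcription factors that define the hepatocyte. They were chosen as every probe set of the array whose annotation names 1 of these genes and no other, which gave 5 probe sets, 1 for each gene, of 12422 probe sets tested and 8251 genes covered. The question put to them was whether the factors that hold hepatocyte identity keep their transcript levels when the stress kinase PERK is switched on in the liver.

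HNF4A is a nuclear receptor that binds as a homodimer and is needed for the expression of a large share of the genes that mark a differentiated hepatocyte, among them apolipoproteins and clotting factors. FOXA1, FOXA2 and FOXA3 share a forkhead DNA-binding domain and can bind their sites in compacted chromatin, and FOXA1 and FOXA2 are together needed for the liver to form. ONECUT1, also called HNF6, is a cut-homeodomain factor of hepatocytes and bile duct cells, and these factors occupy and regulate each other's promoters in a network.

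Liver RNA was hybridised to 8 Affymetrix oligonucleotide arrays, and each of 4 groups had 2. Every animal carried the low-expressing line of a transgene that puts Fv2E-PERK, a fusion of the PERK kinase with a drug-binding domain, under the promoter of the transthyretin gene Ttr, in a mixed FvB/n and Swiss Webster background. The groups were untreated Atf4+/+, untreated Atf4-/-, AP20187-treated Atf4+/+ and AP20187-treated Atf4-/- livers of transgene-positive siblings. AP20187 joins the fusion proteins into dimers and so starts the integrated stress response. ATF4 is a bZIP transcription factor, made in larger amounts from its mRNA during this response. The series title calls the livers without drug mock-injected, and the sample labels call them untreated. The labels give no age, sex, dose or time after injection. The animals are transgenic for the activator in the controls as well, so that none of the groups shows a liver without Fv2E-PERK, and the germline loss of Atf4 is not limited to hepatocytes. Nothing in the labels ties each array to a mouse of its own, and p-values measure the spread between these arrays, which may be technical.

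The deposited value is a linear ratio of a probe set to its own median over the 8 arrays. That median lay within 0.01 of 1 for 85.8% of the table and was 1.0 for all 5 genes here. A level of 1 is therefore the middle of the 8 arrays for that gene, and the levels of different genes cannot be set against each other. Differences are given on the scale of log2(ratio + 0.1), which understates changes, slightly near a ratio of 1 and strongly where ratios are near 0.1 or below. Fold values and their intervals come from the same scale and are folds of ratio + 0.1, not of the ratio itself. The number of arrays limits the precision, and in bulk liver fewer cells of a type and less RNA per cell cannot be told apart.

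Some arrays stood against their labels. The Atf4 probe set had ratios of 2.36 and 0.30 in the arrays labelled untreated Atf4+/+ and of 0.29 and 1.67 in those labelled untreated Atf4-/-, against 4.17 and 5.75 in treated Atf4+/+ and 0.25 and 0.33 in treated Atf4-/- livers. Replicate 2 of each untreated group was thus on the side of the other genotype, and the labels do not say whether this probe set lies in the deleted part of Atf4. The source name and the description of untreated Atf4-/- replicate 1 disagree on the genotype, and it was grouped by the former. Untreated Atf4+/+ replicate 1 was grouped by its description, and all other arrays by their source names. The labels give no replicate numbers. Those used here follow the order of the samples and link no array of one group to an array of another. For the 5 factors, comparisons that rest on the genotype of an untreated array are given with and without both replicates 2. The comparison of all 4 treated with all 4 untreated arrays weighs the arrays equally when each genotype holds 2 of them. With untreated Atf4-/- replicate 1 grouped by its description the weights are unequal, and the values were 0.20 for Hnf4a, -0.09 for Foxa1, 0.08 for Foxa2, 0.79 for Foxa3 and 0.48 for Onecut1.

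In that comparison 4 of the 5 factors overlapped between treated and untreated arrays, and Foxa3 was higher in every treated array than in any untreated array. None of the 5 passed the limma test adjusted over all probe sets by the method of Benjamini and Hochberg (adjusted p from 0.424 to 0.989), where 0.0403% of all probe sets did. By unadjusted p below 0.05 in limma, 1 of 5 (Foxa3) was past the threshold and higher, against 11.3% of all probe sets in either direction and 6.16% higher. The median of the 5 differences was 0.18, and that over all probe sets was -0.043. Foxa3 was also the 1 of 5 without overlap, against 4.19% of all probe sets that were higher without overlap. In the same arrays the 10 genes listed as direct readouts of the stress response had a median of 2.60, and 10 of 10 were above 0.

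**Figure D1:**
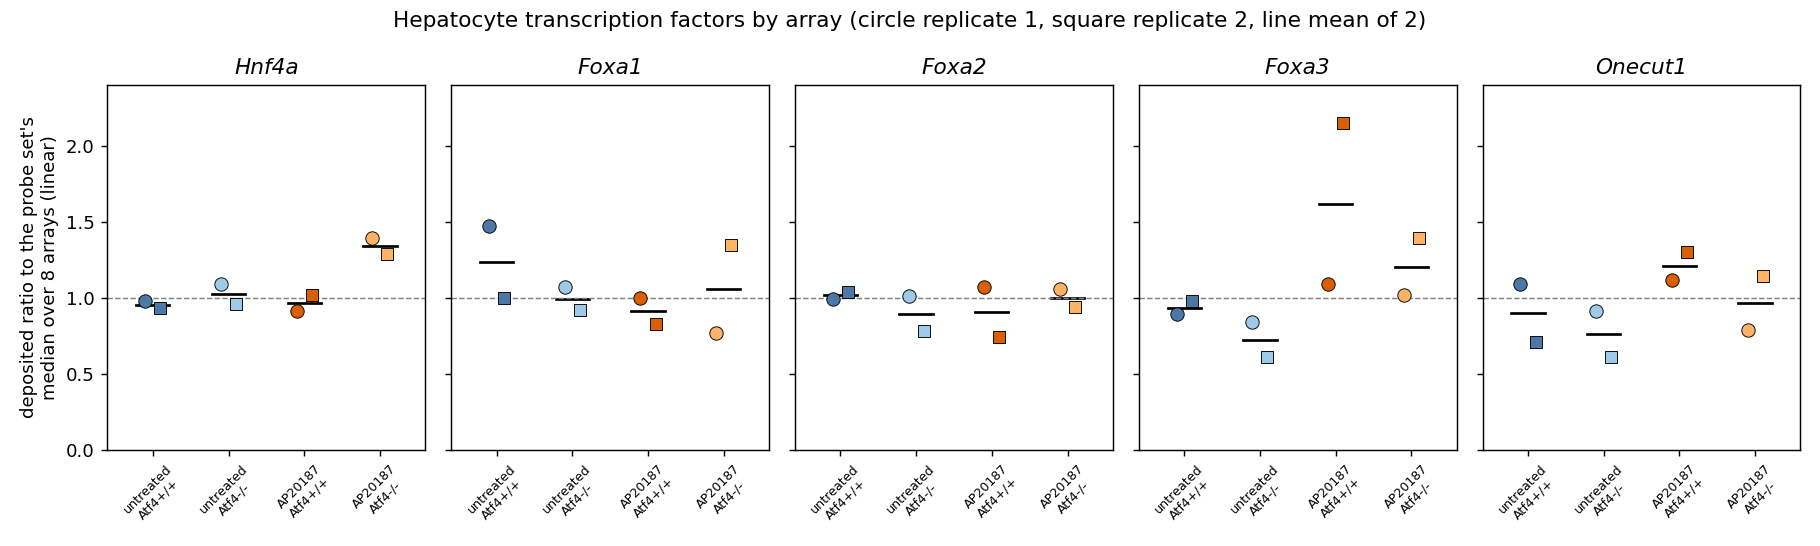
Deposited ratios of the 5 factors on a linear axis, 1 panel per gene and 1 point per array, with circles for replicate 1, squares for replicate 2 and a line at the mean of 2 arrays. Foxa3 lies between 0.61 and 0.98 in untreated and between 1.02 and 2.15 in treated livers, while the other 4 genes overlap between treated and untreated arrays.

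Hnf4a, the nuclear receptor of the set, was the steadiest within groups. Its ratios were 0.98 and 0.93 in untreated Atf4+/+, 1.09 and 0.96 in untreated Atf4-/-, 0.91 and 1.02 in treated Atf4+/+, and 1.39 and 1.29 in treated Atf4-/- livers. The treated Atf4-/- pair was above the other 6 arrays, which lay within 0.91 to 1.09 and overlapped with each other. The pooled SD within groups was 0.09 on the log2 scale, and 2.42% of all probe sets had a smaller one, while the median over all probe sets was 0.33. Untreated arrays averaged 0.99 ± 0.0698 and treated arrays 1.15 ± 0.225 (SD, n = 4 each), a fitted difference of 0.18 ± 0.14 (SE, limma adjusted p = 0.649) or 1.14-fold with a 95% interval of 0.896 to 1.44. A fall below 0.896-fold was therefore outside the interval of this comparison over both genotypes. Within a genotype the intervals were wider, 0.721 to 1.41-fold in Atf4+/+ and 0.916 to 1.79-fold in Atf4-/- livers.

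The effect of AP20187 on Hnf4a was 0.01 ± 0.20 in Atf4+/+ livers and 0.36 ± 0.20 in Atf4-/- livers (SE, limma adjusted p = 0.991 and 0.725). The test of the difference between both effects gave 0.35 ± 0.28 (SE, limma adjusted p = 0.945), so that the higher Hnf4a values in treated Atf4-/- livers were not shown to be particular to that genotype. Under AP20187 alone, where the genotype labels and the Atf4 ratios pointed the same way, Atf4-/- exceeded Atf4+/+ by 0.44 ± 0.20 (SE, limma unadjusted p = 0.0702, adjusted p = 0.952). This was 1.35-fold with a 95% interval of 0.967 to 1.89. It was the 1 of 5 factors higher without overlap in that comparison, against 19.2% of all probe sets. Without the doubted untreated arrays the effect in Atf4+/+ livers was -0.02 and that in Atf4-/- livers 0.27.

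Foxa3, a forkhead factor of adult hepatocytes, had ratios of 0.89 and 0.98 in untreated Atf4+/+, 0.84 and 0.61 in untreated Atf4-/-, 1.09 and 2.15 in treated Atf4+/+, and 1.02 and 1.39 in treated Atf4-/- livers. Every treated array was above every untreated array, in both genotypes. The highest value, 2.15 in treated Atf4+/+ replicate 2, lay far above its own replicate, and the lowest treated value of 1.02 was next to the highest untreated value of 0.98. Foxa3 averaged 0.83 ± 0.158 untreated and 1.41 ± 0.517 treated (SD, n = 4 each). The fitted difference was 0.66 ± 0.25 (SE, limma unadjusted p = 0.0382, adjusted p = 0.424), or 1.58-fold with a 95% interval of 1.03 to 2.42.

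The effect on Foxa3 was 0.66 ± 0.36 in Atf4+/+ and 0.66 ± 0.36 in Atf4-/- livers (SE, limma adjusted p = 0.641 and 0.719). These values moved with single arrays, from 0.20 to 1.12 in Atf4+/+ and from 0.46 to 0.87 in Atf4-/- livers on leaving out 1 array, with 0.20 in Atf4+/+ reached without treated replicate 2. Without the doubted arrays they were 0.72 and 0.46. The difference of both effects had a 95% interval of -1.23 to 1.22, which leaves room for effects more than 2-fold apart. Treated Atf4+/+ replicate 2 weighed on the size: without it the difference of treated and untreated arrays was 0.43 (limma unadjusted p = 0.0872), and without the other treated Atf4+/+ array it was 0.89 (limma unadjusted p = 0.00694, adjusted p = 0.193). Without both doubted untreated arrays it was 0.59 (limma unadjusted p = 0.161). Untreated Atf4-/- livers were lower than untreated Atf4+/+ livers in Foxa3 without overlap, by -0.34 ± 0.36 (SE, limma adjusted p = 0.999), or -0.07 without the doubted arrays. Of the 5 factors it was the 1 that was lower without overlap there, against 16.4% of all probe sets.

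Onecut1, the cut-homeodomain factor, had ratios of 1.09 and 0.71 in untreated Atf4+/+, 0.91 and 0.61 in untreated Atf4-/-, 1.12 and 1.30 in treated Atf4+/+, and 0.79 and 1.14 in treated Atf4-/- livers. The lowest values, 0.71 and 0.61, came from different untreated groups. The treated Atf4+/+ pair lay just above the untreated Atf4+/+ pair, with 1.12 against 1.09. Onecut1 averaged 0.83 ± 0.214 untreated and 1.09 ± 0.214 treated (SD, n = 4 each), and the fitted difference was 0.36 ± 0.22 (SE, limma adjusted p = 0.575), or 1.29-fold with a 95% interval of 0.883 to 1.87. The arrays with the lowest Onecut1 are those whose Atf4 level stood against the label, and without them the difference was 0.10. In Atf4+/+ livers the effect was 0.41 ± 0.32 and in Atf4-/- livers 0.31 ± 0.32 (SE, limma adjusted p = 0.724 and 0.83). Leaving out 1 array gave 0.14 to 0.69 in Atf4+/+ and 0.06 to 0.57 in Atf4-/- livers, and without both doubted arrays the effects were 0.14 and 0.06.

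Foxa1 and Foxa2, the forkhead factors that act together in liver formation, did not separate treated from untreated livers. Foxa1 had ratios of 1.47 and 1.0 in untreated Atf4+/+, 1.07 and 0.92 in untreated Atf4-/-, 1.0 and 0.83 in treated Atf4+/+, and 0.77 and 1.35 in treated Atf4-/- livers. The treated Atf4-/- replicates were the lowest and the second highest of the 8 values, so that the spread within this group was as wide as that between groups. The fitted difference of Foxa1 was -0.17 ± 0.23 (SE, limma adjusted p = 0.803), or 0.89-fold with a 95% interval of 0.605 to 1.31. It was -0.38 ± 0.33 in Atf4+/+ and 0.04 ± 0.33 in Atf4-/- livers (SE, limma adjusted p = 0.753 and 0.987), and without the doubted arrays -0.63 and -0.06.

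Foxa2 had ratios of 0.99 and 1.04 in untreated Atf4+/+, 1.01 and 0.78 in untreated Atf4-/-, 1.07 and 0.74 in treated Atf4+/+, and 1.06 and 0.94 in treated Atf4-/- livers. Its 8 values lay closest together of the 5 genes, with a highest value 1.45 times the lowest, and 7.86% of all probe sets had a smaller range. The lowest values, 0.74 and 0.78, were in treated Atf4+/+ and untreated Atf4-/- livers. The fitted difference was -0.01 ± 0.18 (SE, limma adjusted p = 0.989), or 0.994-fold with a 95% interval of 0.737 to 1.34. In Atf4+/+ and Atf4-/- livers it was -0.17 ± 0.25 and 0.15 ± 0.25 (SE, limma adjusted p = 0.865 and 0.905), and without the doubted arrays -0.14 and -0.02.

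The order of the group means differed from gene to gene. For Hnf4a it ran from untreated Atf4+/+ (0.955) over treated Atf4+/+ (0.965) and untreated Atf4-/- (1.02) to treated Atf4-/- (1.34), and the lower 3 did not differ beyond their spread. For Foxa3 it ran from untreated Atf4-/- (0.725) over untreated Atf4+/+ (0.935) and treated Atf4-/- (1.21) to treated Atf4+/+ (1.62), where the treated pairs overlapped and the other neighbours did not. Onecut1 had the same order, with 0.76, 0.90, 0.965 and 1.21, and neighbours overlapped except that treated Atf4+/+ stood clear of both untreated groups. For Foxa1 the means went from 0.915 in treated Atf4+/+ to 1.23 in untreated Atf4+/+, and for Foxa2 from 0.895 in untreated Atf4-/- to 1.02 in untreated Atf4+/+. In both of these genes every pair of neighbours in the order overlapped.

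**Figure D2:**
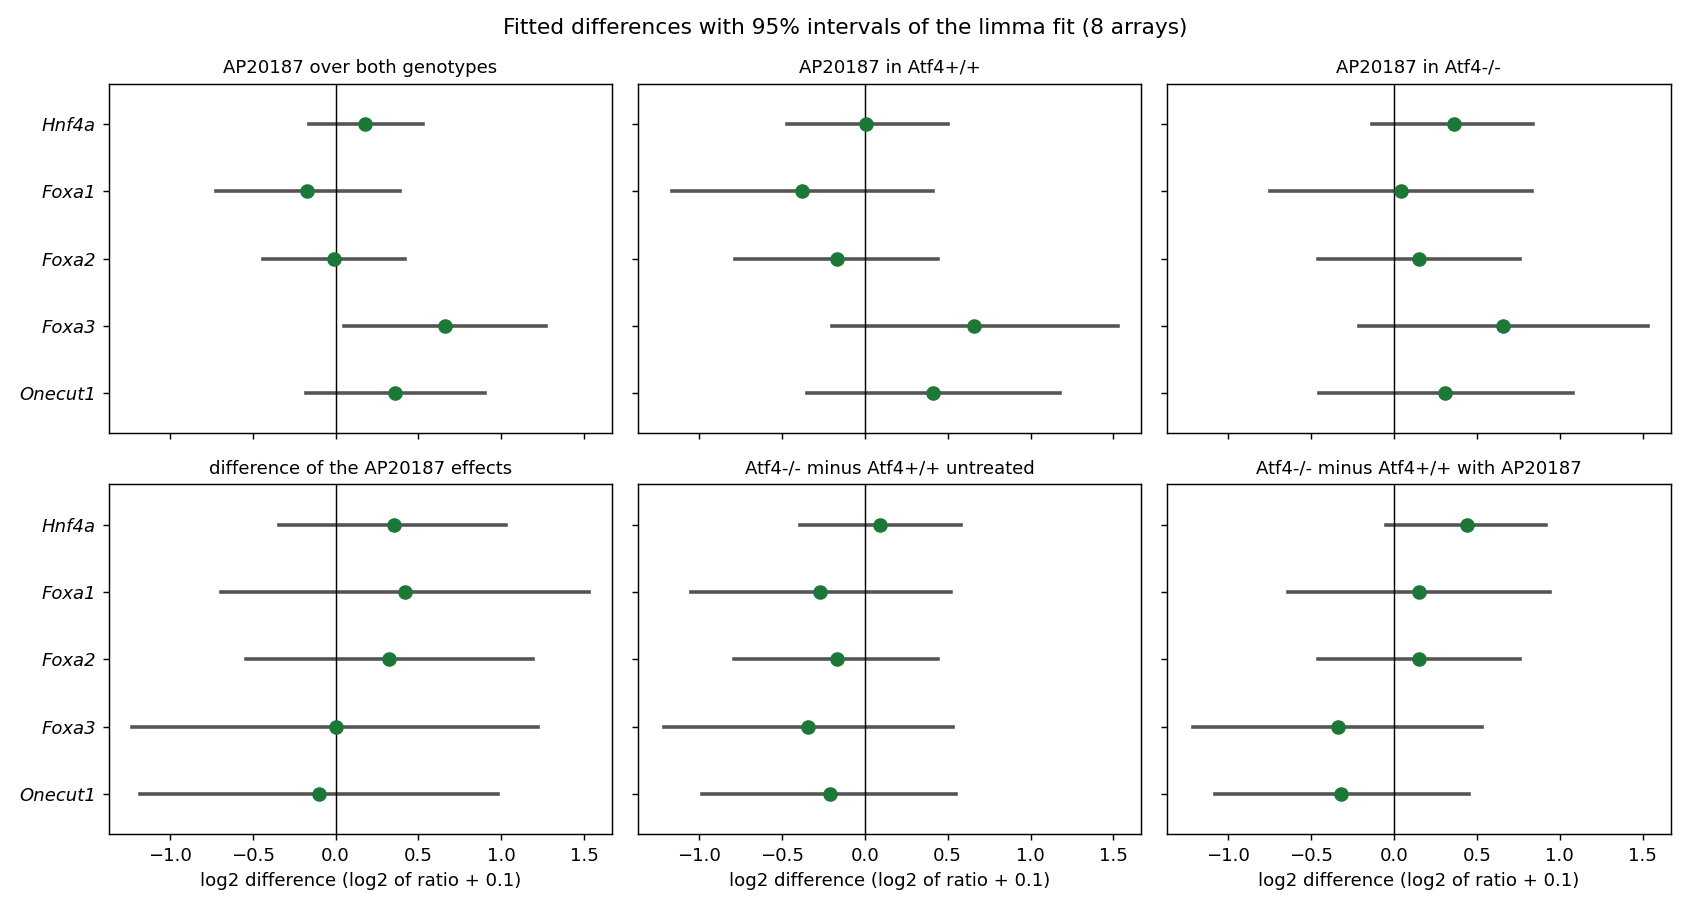
Fitted log2 differences of the 5 factors (points) with 95% intervals of the limma fit to 8 arrays (lines), 1 panel for each of 6 comparisons, on a common axis of log2(ratio + 0.1). The interval of Foxa3 in the comparison of treated with untreated arrays, 0.05 to 1.27, is the only plotted interval that does not include 0.

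In the genotype comparisons none of the 5 genes passed the limma test, with adjusted p of 0.999 for each untreated and 0.952 to 0.977 with AP20187, and 0 of 5 had an unadjusted p below 0.05 in either. Over all probe sets limma called 0% by adjusted p in both of these comparisons, and 5.32% and 5.31% had an unadjusted p below 0.05. Within a genotype limma called 0.00805% of all probe sets by adjusted p in Atf4+/+ and 0% in Atf4-/- livers. The effect of AP20187 within a genotype had an unadjusted limma p below 0.05 in 0 of 5 genes as well, against 9.1% of all probe sets in Atf4+/+ and 7.42% in Atf4-/- livers. Without overlap and higher were 2 of 5 in Atf4+/+ (Foxa3 and Onecut1, against 16.7% of all probe sets) and 2 of 5 in Atf4-/- livers (Hnf4a and Foxa3, against 20.1%). The difference of the AP20187 effects between genotypes had adjusted p from 0.945 to 1.0 by limma, an unadjusted p below 0.05 in 0 of 5 genes, and was below that in 5.46% of all probe sets. Without the doubted arrays the difference of effects was 0.30 for Hnf4a, 0.58 for Foxa1, 0.12 for Foxa2, -0.27 for Foxa3 and -0.08 for Onecut1. The untreated genotypes then differed by 0.14, -0.42, 0.03, -0.07 and -0.24 in the same order of genes, against 0.09, -0.27, -0.17, -0.34 and -0.21 with all arrays. The comparisons with AP20187 within a genotype and over both share arrays, so that their values are not separate evidence.

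Across the 8 arrays Foxa3 and Onecut1 varied together most closely of the 10 pairs of factors (Pearson r = 0.77, exact permutation p = 0.0174, adjusted p = 0.174; Spearman rho = 0.81, exact permutation p = 0.0218, adjusted p = 0.218; both two-sided, n = 8, adjusted by Benjamini and Hochberg over 10 pairs). Without the 2 arrays farthest from the median of Foxa3 the correlation was 0.39. Leaving them out also narrows the range of Foxa3, so the fall in r does not show what the relation rests on. The permutations exchanged arrays between groups, so that p does not set the relation apart from the treatment. The 9 other pairs had Pearson r between -0.29 and 0.33. The pairs within the FOXA family were 0.23 (Foxa1 and Foxa2), -0.13 (Foxa1 and Foxa3) and -0.29 (Foxa2 and Foxa3).

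The probe sets most like each factor over the 8 arrays, of 10327 searched, were Ubtf (r = 0.992), Tgif1 (0.976) and Chd7 (0.974) for Foxa3, Git1 (0.983), Nacc2 (0.959) and Siah2 (0.958) for Onecut1, and Plbd1 (0.976), Cd44 (0.969) and H3c14 (0.959) for Hnf4a. For Foxa1 they were Arg2 (0.951), Emc3 (0.947) and Map2k5 (0.934), and for Foxa2 Vmn2r61 (0.961), Gpat4 (0.96) and Lamtor5 (0.955). None of these 15 is another member of the set. The lowest ratio was 0.08 for Gpat4, 0.12 for Cd44 and 0.19 for Vmn2r61, near the pseudocount of 0.1. For the others it lay between 0.32 and 0.98. With 8 arrays such values come from a search over many probe sets, and r over 0.9 was reached by 79 probe sets for Foxa3, 35 for Onecut1, 28 for Foxa2, 13 for Hnf4a and 9 for Foxa1.

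Promoter windows, 250 bases before to 50 after a start site, were taken from RefSeq on GRCm38.p6 for all 5 genes. They hold 8 windows in all, 2 for Hnf4a and 3 for Foxa2. They are shown for Foxa3 and Onecut1, the pair that varied together most closely, and for the windows of Hnf4a and Foxa1 that hold a motif of the network. Letters are in lower case, 5′ to 3′ on the strand of the gene, and capitals mark a match. The Foxa3 window lies at chr7:19023490-19023789 (minus strand), Onecut1 at chr9:74861671-74861970 (plus), the upstream start of Hnf4a at chr2:163506607-163506906 (plus) and Foxa1 at chr12:57546062-57546361 (minus).
Foxa3: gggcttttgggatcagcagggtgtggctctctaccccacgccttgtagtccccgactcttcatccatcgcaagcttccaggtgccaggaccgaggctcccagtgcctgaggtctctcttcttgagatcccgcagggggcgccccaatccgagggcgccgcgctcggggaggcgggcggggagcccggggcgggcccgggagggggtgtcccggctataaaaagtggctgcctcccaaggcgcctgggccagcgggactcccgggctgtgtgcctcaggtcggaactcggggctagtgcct
Onecut1: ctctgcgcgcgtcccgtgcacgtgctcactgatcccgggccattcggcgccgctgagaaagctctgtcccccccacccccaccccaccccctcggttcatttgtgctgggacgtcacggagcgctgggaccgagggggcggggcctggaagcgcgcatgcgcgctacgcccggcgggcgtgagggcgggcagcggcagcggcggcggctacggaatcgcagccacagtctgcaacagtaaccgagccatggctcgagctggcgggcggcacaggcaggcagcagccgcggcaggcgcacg
Hnf4a: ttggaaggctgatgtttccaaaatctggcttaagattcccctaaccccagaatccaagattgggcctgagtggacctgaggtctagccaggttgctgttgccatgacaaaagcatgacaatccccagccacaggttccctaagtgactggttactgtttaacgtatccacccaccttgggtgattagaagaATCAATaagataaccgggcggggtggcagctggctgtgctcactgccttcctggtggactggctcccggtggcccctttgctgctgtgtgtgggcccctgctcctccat
Foxa1: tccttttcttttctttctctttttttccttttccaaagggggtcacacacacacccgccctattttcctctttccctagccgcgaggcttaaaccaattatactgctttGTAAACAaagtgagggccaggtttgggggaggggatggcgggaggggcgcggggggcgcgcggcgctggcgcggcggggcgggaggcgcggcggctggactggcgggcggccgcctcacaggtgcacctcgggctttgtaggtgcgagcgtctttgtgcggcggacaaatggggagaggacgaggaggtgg

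The motifs searched, on both strands, were TGTTTAC and TGTTTGC for FOXA, CAAAGTCCA for HNF4, ATTGAT for ONECUT, TGATGNAA for the composite element of C/EBP and ATF factors, and TGACGTCA for ATF and CREB factors. The Foxa1 window held the FOXA motif TGTTTAC, on the reverse strand from 141 bases before the start, as 3.65% of all 32851 windows of this length did. The Hnf4a window of the upstream start held ATTGAT from 59 bases before the start, also on the reverse strand, and the most upstream Foxa2 window (chr2:148046920-148047219, minus strand) held it from 213 bases before the start. That motif was in 7.54% of all windows. The other 5 windows held none of the 6 motifs. Foxa3, Onecut1 and the downstream start of Hnf4a (chr2:163546905-163547204, plus strand) were among them. Which start of Hnf4a gave the transcript measured here was not tested. None of the 8 windows held TGATGNAA, which 3.97% of all windows had. A match is a run of letters and no measure of binding.

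The Ttr gene, whose promoter drives Fv2E-PERK and is a known target of HNF and FOXA factors, was lower in every treated than in any untreated array. Its ratios were 1.15, 1.02, 1.43 and 1.25 in the untreated livers and 0.83, 0.47, 0.98 and 0.93 in the treated ones, in the order Atf4+/+ then Atf4-/-. The lowest value was in treated Atf4+/+ replicate 2, the array with the highest Foxa3. The fitted difference was -0.57 ± 0.20 (SE, limma unadjusted p = 0.0262, adjusted p = 0.385), and 3.78% of all probe sets were lower without overlap. Alb, the albumin gene, had a difference of -0.13 ± 0.14 (SE, limma adjusted p = 0.749). The level of the transgene itself was not measured by a probe set known to be its own. Eif2ak3, the endogenous gene of PERK, had a difference of 0.16 ± 0.28 (SE, limma adjusted p = 0.856).

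**Figure D3:**
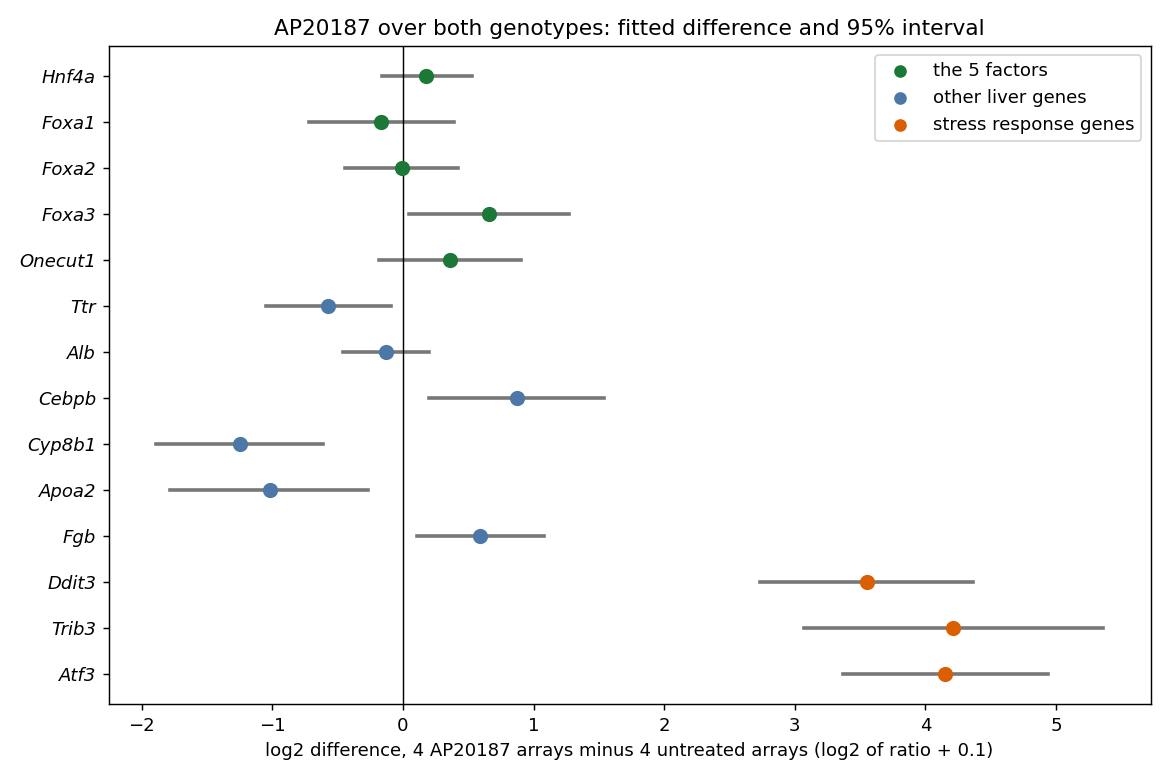
Fitted log2 difference of 4 treated and 4 untreated arrays (points) with 95% intervals (lines) for the 5 factors (green), 6 other liver genes (blue) and 3 stress response genes (orange). The 5 factors lie between -0.17 and 0.66, while Ddit3, Atf3 and Trib3 lie between 3.55 and 4.21.

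Other transcription factors of the hepatocyte network were measured for 23 of 29 genes listed, and 0 of 23 passed the limma test over all probe sets with AP20187 over both genotypes. There were 10 values above 0 (43.5%, against 5586 of 12422 probe sets in all) and a median of -0.05. By unadjusted limma p below 0.05, 1 was higher and 4 were lower, against 6.16% and 5.15% of all probe sets. The higher one was Cebpb (0.87 ± 0.28, SE, limma adjusted p = 0.374), which encodes a bZIP factor raised in the acute phase. The 3 of the 4 lower ones with the smallest p were the clock-output factor gene Tef (-0.69 ± 0.19), Esrra (-0.42 ± 0.15), which encodes an orphan receptor of mitochondrial genes, and Gata4 (-0.41 ± 0.15), with limma adjusted p of 0.307, 0.40 and 0.39. Cebpa, the bZIP factor of the mature hepatocyte, stood at -0.01 ± 0.18, and Nr1h4, the bile acid receptor FXR, at 0.40 ± 0.28. Hhex (0.33 ± 0.20) and Nr5a2 (0.26 ± 0.17) were next above 0 by p.

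Plasma proteins and liver enzymes include many genes that these factors are known to control. With AP20187 over both genotypes, 0 of 25 plasma protein genes measured passed the limma test, 7 were above 0, and the median was -0.15. In Atf4+/+ livers 20 of 25 were below 0 (median -0.21), and in Atf4-/- livers 13 of 25 (median -0.0). Of all 12422 probe sets 6821 and 6448 were below 0. Under AP20187, 24 of 25 were higher in Atf4-/- than in Atf4+/+ livers, against 54.8% of all probe sets. In untreated livers, with both doubted arrays included, 17 of 25 were higher in Atf4-/-, against 49.3% of all probe sets. The difference of the AP20187 effects passed the limma test in 0 of 25. By unadjusted limma p below 0.05 over both genotypes, 2 of 25 were higher and 2 lower, against 6.16% and 5.15% of all probe sets. The higher ones were the fibrinogen chain genes Fgb (0.59 ± 0.20) and Fgg (0.42 ± 0.16). The lower ones were Ttr and the lipoprotein gene Apoa2 (-1.02 ± 0.31, SE, limma adjusted p = 0.354). Fga, the other fibrinogen chain, stood at 0.28 ± 0.17, and Apom at -0.51 ± 0.22. The effect on Apom was -1.03 ± 0.31 in Atf4+/+ and 0.02 ± 0.31 in Atf4-/- livers (SE, limma adjusted p = 0.436 and 0.995). The difference of these effects had a limma adjusted p of 0.912. The mean level of the plasma protein list was -0.25 in treated Atf4+/+ replicate 2 and 0.06 in its replicate. Of 27 hepatocyte enzyme and transporter genes 25 were below 0, against 6836 of 12422 probe sets in all, with a median of -0.29. In Atf4+/+ livers 24 of 27 were below 0 (median -0.38), and in Atf4-/- livers 19 of 27 (median -0.14). The difference of the AP20187 effects passed the limma test in 0 of 27. Values within a genotype include both doubted untreated arrays. Over both genotypes 0 of 27 passed the limma test, and 2 were lower with an unadjusted p below 0.05, against 5.15% of all probe sets. They were Cyp8b1, a sterol hydroxylase of bile acid synthesis (-1.25 ± 0.27, limma adjusted p = 0.228), and the bile salt carrier gene Slc10a1 (-0.68 ± 0.23, limma adjusted p = 0.382). The effect on Cyp8b1 was -1.86 ± 0.38 in Atf4+/+ and -0.63 ± 0.38 in Atf4-/- livers (SE, limma adjusted p = 0.266 and 0.733). Tat, a tyrosine-degrading enzyme gene under glucocorticoid control, was 1 of the 2 above 0 over both genotypes (0.29 ± 0.15). In this list 1 of 27 genes was higher without overlap, Tat, and 1 was lower, Slc10a1, against 4.19% and 3.78% of all probe sets. The ratios of Slc10a1 were 1.06 to 1.37 untreated and 0.39 to 0.94 treated.

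The mean level of the enzyme and transporter list was 0.18 to 0.24 in untreated and -0.45 to 0.17 in treated arrays on the log2 scale. Treated Atf4+/+ replicate 2 was the lowest at -0.45. Without that array the median difference was -0.09, with 23 of 27 still below 0. The array with the highest Foxa3 ratio was thus also the array with the lowest Ttr ratio, the lowest level of this list and the highest level of the stress response list (2.66, against 2.29 in its replicate).

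**Figure D4:**
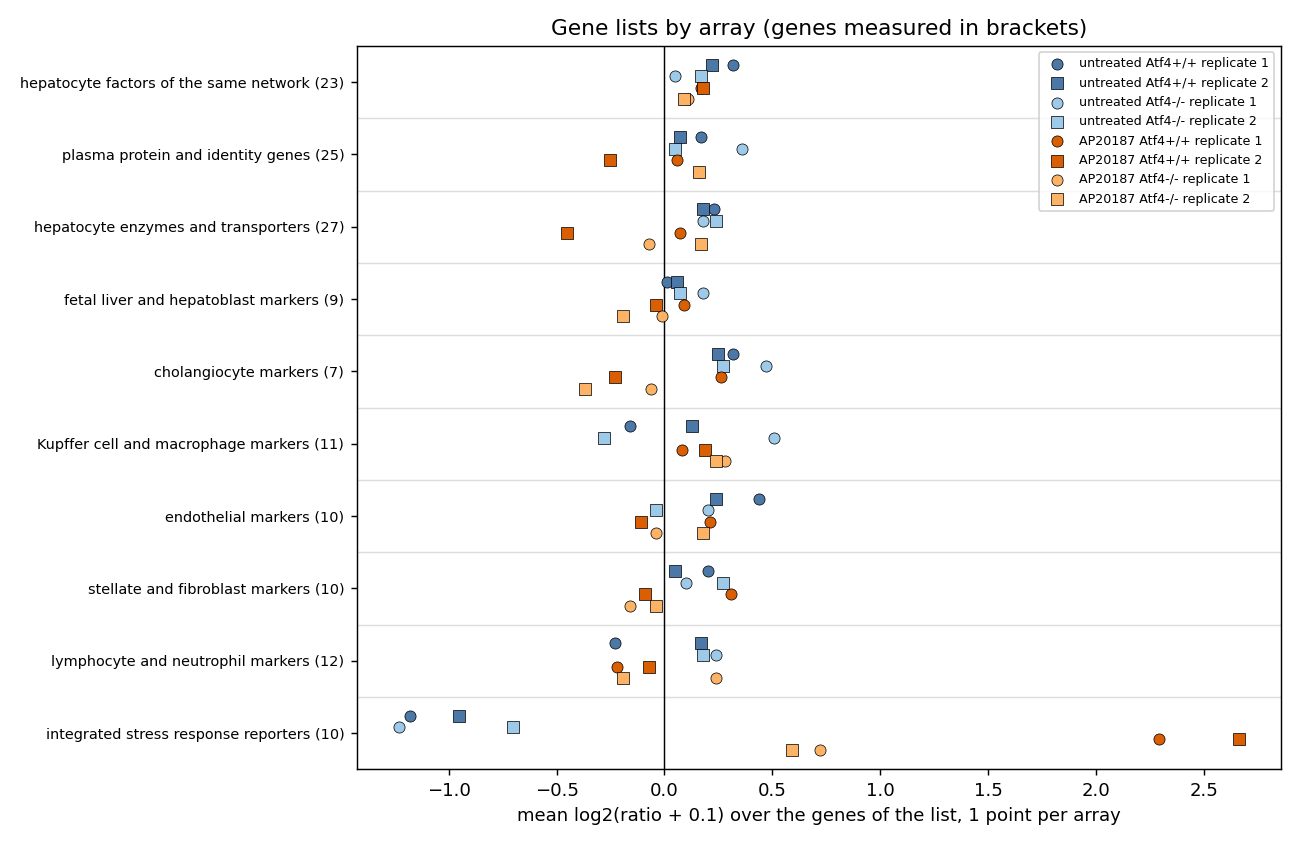
Mean log2(ratio + 0.1) over the measured genes of each list, 1 point per array, with colours for the 4 groups and circles and squares for replicates 1 and 2. The stress response list separates treated (0.59 to 2.66) from untreated arrays (-1.23 to -0.70), while the other hepatocyte factors overlap (0.09 to 0.18 treated, 0.05 to 0.32 untreated).

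The stress response genes are known targets of the pathway that the drug starts. Of 10 genes, 1 rose by the limma test over all probe sets, Atf3 (4.15 ± 0.33, SE, adjusted p = 0.037), a bZIP factor gene. Ddit3, which encodes CHOP, had 3.55 ± 0.34 and the pseudokinase gene Trib3 4.21 ± 0.48 (SE, limma adjusted p = 0.0569 and 0.0786). By unadjusted limma p below 0.05, 9 of 10 were higher. With any 1 array left out, between 0 and 2 of all probe sets passed the adjusted test, and without both doubted untreated arrays 0 did.

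Markers of an undifferentiated liver and of other liver cells were measured beside the factors. Of 9 fetal liver markers 3 were above 0 with AP20187 (median -0.05), and Afp, the classical marker of the hepatoblast, stood at -0.34 ± 0.27 (SE, limma adjusted p = 0.664). Of 7 bile duct markers, cells that also express Onecut1, 2 were above 0 (median -0.43), with Krt19 at 0.38 ± 0.35 and Prom1 at -1.0 ± 0.32. The mean level of these 7 was 0.25 to 0.47 in untreated and -0.37 to 0.26 in treated arrays. Of 11 macrophage markers 6 were above 0 (median 0.01, levels -0.28 to 0.51 untreated and 0.08 to 0.28 treated), and Mpeg1 stood at 0.51 ± 0.15 (SE, limma adjusted p = 0.32). Of 10 endothelial markers 3 were above 0 (median -0.18, levels -0.04 to 0.44 untreated and -0.11 to 0.21 treated), with Vwf at -0.49 ± 0.15, and of 10 stellate cell and fibroblast markers 3 (median -0.17, levels 0.05 to 0.27 untreated and -0.16 to 0.31 treated). Of 12 lymphocyte and neutrophil markers 6 were above 0 (median 0.0, levels -0.23 to 0.24 untreated and -0.22 to 0.24 treated). In these lists 0 genes passed the limma test over all probe sets. An unadjusted limma p below 0.05 was seen for Mpeg1, Prom1 and Vwf, against 11.3% of all probe sets. Only these 3 separated treated from untreated arrays, where 4.19% of all probe sets were higher and 3.78% lower without overlap. Mpeg1 was higher (0.64 to 0.90 untreated, 1.10 to 1.30 treated). Prom1 (1.08 to 1.82 untreated, 0.34 to 0.93 treated) and Vwf (1.08 to 1.24 untreated, 0.67 to 0.92 treated) were lower. The part of changing cell makeup in the values of the 5 factors was not tested.

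Arrays of the same group correlated with r of 0.26 to 0.365 across probe sets and arrays of different groups with 0.097 to 0.40, and probe sets are not independent replicates. These r are on the scale of log2(ratio + 0.1), where each probe set is relative to its own median. They leave out differences in level between genes and cannot be set against correlations of array signals. The means of the 8 arrays after trimming lay between 0.937 and 0.98.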

How the data were processed

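Biotinylated cRNA was made from total liver RNA for 8 arrays, per the labels' protocols. The deposited values are a linear ratio per probe set, given to 0.01, and in 85.8% of the table their median over the 8 arrays was within 0.01 of 1. No source used here describes the summary, scaling or divisor. Source names and descriptions gave the groups.

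Without 66 control probe sets, 12422 remained, of which 10833 name 1 gene, and 10817 were matched by gene identifier. A pseudocount of 0.1 was added before taking log2. Group means of 4 groups were fitted to 8 arrays with limma 3.58.1 in R 4.3.3, and 6 contrasts were moderated by eBayes (4 residual and 2.37 prior degrees of freedom). Adjustment (Benjamini and Hochberg) ran over all probe sets, threshold 0.05. The fit was tested on simulated data. Intervals are 95% limma intervals.

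The 5 genes and the lists were chosen with earlier results of these data known, and support nothing by their choice. Named were the 5 genes, Atf4, Eif2ak3, a fixed set (Ttr, Alb, Cebpa, Nr1h4, Afp, Krt19), up to 3 genes of each list with the smallest p in each direction, and the 3 probe sets most correlated with each factor. A gene with several probe sets is shown by 1, preferring a median ratio of 0.99 or more, an unsuffixed name and a small spread, in this order. Figures were drawn with matplotlib 3.10.9. The alternatives were other pseudocounts, scalings, filters, moderation, weights, groupings and leaving out arrays.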

Additional observations from a re-analysis of the deposited data

Results flagged for a closer look

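Dpt, the gene of the matrix protein dermatopontin, was higher with AP20187 in both Atf4+/+ arrays and lower in both Atf4-/- arrays, which is why it is listed. Its ratios were 0.35 and 0.44 in untreated Atf4+/+, 2.0 and 2.67 in untreated Atf4-/-, 1.57 and 1.56 in treated Atf4+/+, and 0.30 and 0.38 in treated Atf4-/- livers. The AP20187 effect was 1.76 in Atf4+/+ and -2.46 in Atf4-/- livers (limma adjusted p = 0.136 and 0.119). The difference of the effects was -4.22 ± 0.34 (SE, limma unadjusted p = 1.11e-05, adjusted p = 0.0692). These values include both doubted untreated arrays. It is a stellate cell and fibroblast marker of the lists and none of the 5 factors. The difference of the AP20187 effects in the 5 factors was in no case past the limma test (adjusted p from 0.945 to 1.0).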

How the results depend on the processing

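None of the 5 factors passed the limma test in any comparison under 18 alternative settings (lowest adjusted p 0.193), and the direction of the Foxa3 difference between treated and untreated arrays held in each of 17. The alternatives for the lists were chosen after seeing the data.

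Counts of probe sets past the test moved. For AP20187 over both genotypes (5) the count was 8 with a pseudocount of 0.5, 3 with 0.02, 12 after quantile normalization, 10 with a row median of at least 0.99, 3 with array weights, 0 without both doubted untreated arrays and 0 to 2 leaving out 1 array. In Atf4+/+ livers (1) it was 2 after quantile normalization, 8 with the median filter, 17 with untreated Atf4-/- replicate 1 grouped by its description, 0 without both doubted arrays, 0 with only the groups compared and 0 to 0 leaving out 1 array. For the difference of effects (0) it was 2 with the median filter. The cause was not tested.

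Signs turned where values were near 0. With untreated Atf4-/- replicate 1 grouped by its description Hnf4a was -0.05 for AP20187 in Atf4+/+ and -0.05 for the untreated genotypes, Foxa2 0.08 over both genotypes, and the difference of effects 0.16 for Foxa3 and 0.17 for Onecut1. Without both doubted arrays Hnf4a was -0.02 in Atf4+/+, Foxa1 -0.06 and Foxa2 -0.02 in Atf4-/-, and Foxa2 0.03 for the untreated genotypes. Foxa2 over both genotypes was 0.03 after quantile normalization and 0.01 after centring on the median, and the difference of effects of Foxa3 was 0.02 with a pseudocount of 0.02 and 0.12 after quantile normalization.

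Leaving out 1 array gave, over both genotypes, -0.35 to 0.02 for Foxa1, -0.13 to 0.11 for Foxa2 and 0.43 to 0.89 for Foxa3. For AP20187 in Atf4+/+ it gave -0.06 to 0.09 for Hnf4a and -0.41 to 0.07 for Foxa2, and in Atf4-/- -0.33 to 0.41 for Foxa1 and -0.02 to 0.32 for Foxa2. For the genotypes with AP20187 it gave -0.22 to 0.52 for Foxa1, -0.09 to 0.39 for Foxa2 and -0.8 to 0.12 for Foxa3, and untreated -0.49 to 0.06 for Onecut1. The difference of effects ranged from -0.46 to 0.46 for Foxa3 and from -0.38 to 0.18 for Onecut1. No paired analysis was possible because the labels give no replicate numbers. Ratios do not show how far a probe set lay above background.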
